A study of Mus musculus with 16 samples.

Results

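The type I interferon response genes described here are 40 mouse genes that interferons of the alpha and beta class are known to induce, taken from the count table by symbol. All 40 were among the 48593 genes of the table, and 39 were among the 16606 that passed a filter on low counts and were tested. The remaining member, Ifi44, had 22 reads over all 16 libraries. RNA was sequenced from splenic germinal centre B cells, the B cells that mutate and select their antigen receptors, sorted as B220+, PNA+ and CD95+ cells after an injection of sheep red blood cells as antigen. The groups were 3 libraries in which Crebbp was deleted conditionally in these cells (KO), 3 wild type libraries of the same cohort (KO cohort WT), 4 libraries heterozygous and 3 homozygous for a conditional arginine-to-histidine knock-in allele of Crebbp (RH HET and RH HOMO), and 3 wild type libraries of the knock-in cohort (RH cohort WT). Crebbp encodes a histone acetyltransferase. The labels name neither the Cre driver nor the strain, age or sex of the mice. The 12 days after immunisation in one label field stand against 10 days in another.

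Type I interferons bind the receptor of Ifnar1 and Ifnar2, whose kinases Jak1 and Tyk2 phosphorylate STAT proteins such as Stat2. These join Irf9 in the complex ISGF3, which binds the interferon-stimulated response element (ISRE) in the promoters of target genes. The targets sense viral nucleic acid, block viral replication or adjust the signal itself, and several are also expressed at a basal level in lymphocytes without added interferon.

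Promoter sequences from RefSeq (GRCm38.p6, the window of 250 bases before to 50 bases after a gene's start) were matched by symbol for 30 of the 40 members. The ISRE core was searched as GAAA followed, after any 2 bases, by another GAAA on both strands, with overlapping matches counted. A gene was counted if any of its promoters held a match. The core occurred in 13 of the 30 members (43.3%) and in 1079 of 27025 genes with a promoter (3.99%). Another pattern, TTCNNNGAA, the palindrome that STAT dimers bind, occurred in 8 of the 30 members (26.7%) and in 9.55% of all genes with a promoter. The 160 bases before the start are printed for 5 members to set the 1 member called in a genotype comparison, Cmpk2, beside its neighbour Rsad2 and beside promoters with overlapping or paired matches. Letters are in lower case, 5′ to 3′ on the strand of the gene, and capitals mark the ISRE core or its reverse complement. Cmpk2 and Rsad2 lie 12751 bases apart on chromosome 12, on opposite strands. Isg15 held 3 overlapping matches, Oas1a 2 overlapping matches and Ifit3 2 separate ones.
Cmpk2 (chr12:26469055-26469214, plus strand): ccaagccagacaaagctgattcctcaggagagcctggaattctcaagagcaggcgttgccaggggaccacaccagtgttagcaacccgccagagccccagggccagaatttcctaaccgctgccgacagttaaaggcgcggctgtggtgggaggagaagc
Rsad2 (chr12:26456453-26456612, minus strand): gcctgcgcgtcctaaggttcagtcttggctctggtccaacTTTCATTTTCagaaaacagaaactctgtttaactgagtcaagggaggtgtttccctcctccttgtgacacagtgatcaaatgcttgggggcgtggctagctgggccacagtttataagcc
Isg15 (chr4:156200819-156200978, minus strand): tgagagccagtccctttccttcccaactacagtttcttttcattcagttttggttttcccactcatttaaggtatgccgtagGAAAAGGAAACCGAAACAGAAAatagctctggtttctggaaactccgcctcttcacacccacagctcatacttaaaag
Ifit3 (chr19:34583369-34583528, plus strand): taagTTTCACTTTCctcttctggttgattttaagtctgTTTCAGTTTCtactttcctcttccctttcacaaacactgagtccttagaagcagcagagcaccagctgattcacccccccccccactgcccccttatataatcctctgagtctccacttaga
Oas1a (chr5:120907526-120907685, minus strand): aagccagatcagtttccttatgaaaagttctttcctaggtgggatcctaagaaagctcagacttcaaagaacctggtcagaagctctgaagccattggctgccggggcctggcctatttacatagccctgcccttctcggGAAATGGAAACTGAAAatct
The Cmpk2 window held no match to these letters.

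The libraries held 41362856 to 93040297 counts. RH HOMO 2 and RH cohort WT 1 stood apart from the other 14 on the first principal component of log2 CPM (77.14 and 50.66, against -40.66 to 24.29), and RH cohort WT 1 carries the batch tag of the knockout cohort. The mitochondrially encoded share of counts was 7.34% in RH cohort WT 1, 7.15% in RH cohort WT 2 and 3.43% to 5.84% in the other libraries. By an Xist count above 1000, the female libraries were 1 of 3 KO, 2 of 3 KO cohort WT, 1 of 4 RH HET, 2 of 3 RH HOMO and 1 of 3 RH cohort WT libraries. The labels do not tie each library to its own mouse, and all p values therefore rest on variation among libraries, which may be partly technical. Values below are CPM (counts scaled to a common library size) with TMM-scaled library sizes, differences are on the log2 scale with a standard error (SE), and called genes are those below 0.05 in the adjusted p of edgeR's quasi-likelihood test with Benjamini-Hochberg adjustment over all tested genes.

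The members spanned a wide range in the wild type cells. Per kilobase of exon, the level of Samhd1, a phosphohydrolase that degrades deoxynucleotides, was 84.95 ± 11.01 CPM per kilobase, and that of Sp100, a component of PML nuclear bodies, was 43.67 ± 5.28 (mean ± SD, n = 6 wild type libraries of both cohorts). Stat2 followed at 20.2 ± 2.01 and Ifi35, which binds the STAT-interacting factor Nmi, at 20.2 ± 2.72, so these neighbours in the order did not differ beyond their spread. Adar, the RNA-editing adenosine deaminase, had 15.7 ± 1.13, Irf9 had 8.28 ± 0.734 and Irf7, the factor that amplifies interferon transcription, had 6.47 ± 1.803. At the low end, Isg15, the ubiquitin-like modifier, had 2.33 ± 0.764, Cmpk2, a mitochondrial nucleotide kinase, 1.19 ± 0.0951, and Ifit3, an RNA-binding tetratricopeptide protein, 0.497 ± 0.153 CPM per kilobase. Mx1, a dynamin-like antiviral GTPase, had 0.186 ± 0.0821, Ifit1, which binds viral RNA caps, 0.0764 ± 0.0463 and Rsad2 (viperin), which makes a chain-terminating nucleotide, 0.0640 ± 0.0264. The Mx, IFIT and Rsad2 effectors stood below Stat2, Irf9 and Irf7, the factors of the signal. Members with an ISRE core match had a median of 1.31 CPM per kilobase and members with a promoter but no match a median of 8.002.

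**Figure D1:**
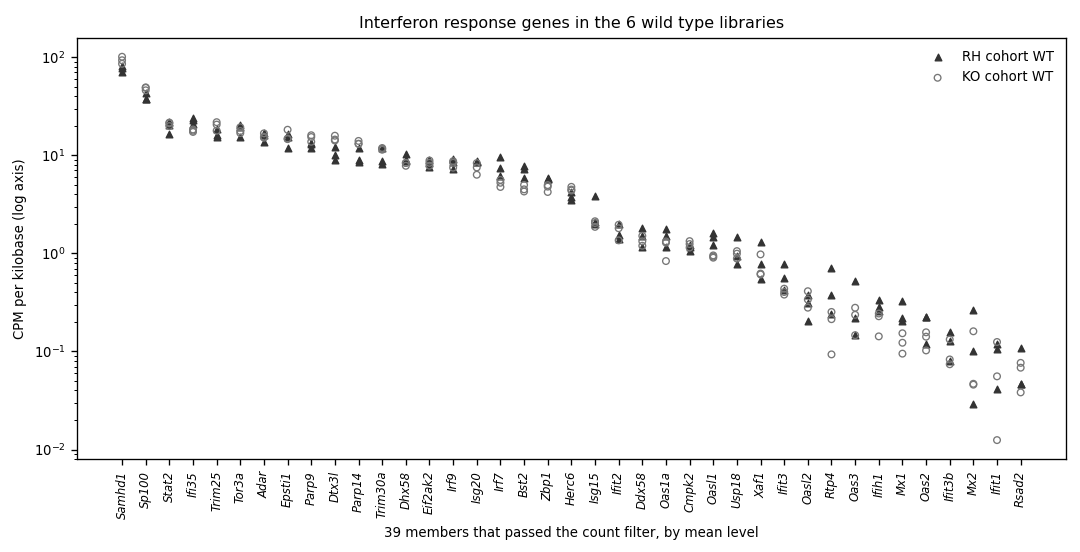
Levels of the 39 tested members in the 6 wild type libraries, in CPM per kilobase of exon on a log axis, ordered by mean level (triangles: RH cohort WT; circles: KO cohort WT). Samhd1 averages 84.95 and Rsad2 0.0640 CPM per kilobase.

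The ligands were near or under the detection limit. Of 18 type I interferon genes in the table, 17 had 0 counts in all 16 libraries, which allows up to 0.0317 to 0.0786 CPM per library (3 counts, counting error only). The exception was Ifnk, with 32 counts in all. The receptor chain Ifnar1 was present, with 40.7, 40.5 and 42.7 CPM in KO against 41.6, 45.5 and 44.0 CPM in KO cohort WT. Ifnar1 had 45.8, 39.9, 44.2 and 41.8 CPM in RH HET, 41.2, 38.5 and 43.6 CPM in RH HOMO and 33.2, 35.9 and 37.0 CPM in RH cohort WT. Every RH HET and every RH HOMO library was above every RH cohort WT library, as for 2.97% and 7.39% of all tested genes. Ifnar1 was not called in any genotype comparison.

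In KO cells, 0 of 39 members were called by edgeR, against 1.3% of all tested genes, and 4 had an unadjusted p under 0.05, against 12.1% of all. DESeq2 called 1 of the 39, Ddx58, against 3.47% of all tested genes with a DESeq2 adjusted p. Differences were above 0 for 20 members, against 49.7% of all tested genes, and below 0 for 19, with a median log2 difference of 0.02 for the members and -0.0021 for all tested genes. All KO libraries were above all KO cohort WT libraries for 4 members (Ddx58, Ifit3, Irf7 and Cmpk2) and below for 5 (Usp18, Parp14, Dtx3l, Samhd1 and Sp100), against 12.7% of all tested genes in each direction. In such bulk samples, fewer cells of a type and less RNA per cell cannot be told apart.

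Among the sensors, Ddx58, which encodes the RNA helicase RIG-I that detects viral 5′ triphosphate RNA, had 20.7, 14.2 and 14.2 CPM in KO against 8.43, 9.35 and 10.6 CPM in KO cohort WT. Every KO library was above every KO cohort WT library, and KO 1 was the highest. The log2 difference was 0.79 ± 0.20 SE (adjusted p = 0.062, edgeR), and the adjusted p fell below 0.05 in 5 of 14 alternatives, DESeq2 among them (adjusted p = 0.0079). In the knock-in cohort Ddx58 had 10.6, 12.1 and 12.3 CPM in RH HOMO against 10.6, 8.25 and 12.8 CPM in RH cohort WT, so the groups overlapped (log2 difference 0.15 ± 0.20 SE, adjusted p = 0.82, edgeR). Ifih1 (MDA5), which senses long double-stranded RNA, and Dhx58 (LGP2), a helicase that modulates both sensors, had KO differences of 0.28 and -0.15 with overlapping groups.

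Samhd1 had 614, 674 and 702 CPM in KO against 784, 852 and 925 CPM in KO cohort WT. The groups did not overlap, and the log2 difference was -0.36 ± 0.12 SE (adjusted p = 0.17, edgeR). Sp100 had 289.7, 298 and 306 CPM in KO against 348, 372 and 368 CPM in KO cohort WT. Here too every KO library was below every wild type library of the cohort (log2 difference -0.28 ± 0.09 SE, adjusted p = 0.16, edgeR). In a fit of only the 6 libraries compared, both passed the threshold, as did Ddx58 and Cmpk2. The share of all genes called in that fit is not given here, so these calls are not read as particular to the members. These abundant members set the summed level of the 40 members, which was 2005.5, 2033.4 and 2033.8 CPM in KO against 2174.1, 2311.3 and 2426.5 CPM in KO cohort WT. Marker sums of several cell types were also lower in KO without overlap. That of 7 conventional dendritic cell markers was 35.3 to 39.01 CPM in KO against 47.0 to 58.0 CPM in KO cohort WT. Among its 5 tested markers Flt3 was called lower, against 0.729% of all tested genes. The sum of 10 T cell markers was 78.095 to 82.5 CPM in KO against 97.8 to 110.9 CPM in KO cohort WT. Of its 5 tested markers, 0 were called by edgeR and 2 had an unadjusted p under 0.05, against 12.1% of all tested genes. Differences were above 0 for 4 of the 5, so most tested T cell markers did not share the lower sum. For 6 plasma cell markers the sum was 567 to 586 CPM in KO against 646 to 676 CPM in KO cohort WT. For 6 NK cell markers it was 0.354 to 0.401 CPM in KO against 0.621 to 1.03 CPM in KO cohort WT. By edgeR 0 were called in either. An unadjusted p under 0.05 was reached by 1 of 5 tested plasma cell and 0 of 2 tested NK cell markers, against 12.1% of all tested genes. The sum of 14 germinal centre B cell markers was 9632 to 10206 CPM in KO against 10256 to 11216 CPM in KO cohort WT. Of these markers Rgs13 was called lower, against 0.729% of all tested genes. The part of these cells in the KO levels was not tested.

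Usp18, the protease that removes Isg15 from proteins and dampens the type I receptor, had 2.08, 1.37 and 1.72 CPM in KO against 2.94, 2.77 and 2.47 CPM in KO cohort WT. Its groups did not overlap, with a log2 difference of -0.66 ± 0.37 SE (adjusted p = 0.53, edgeR). Isg15 itself had 1.99, 1.33 and 1.53 CPM in KO against 1.41, 1.61 and 1.54 CPM in KO cohort WT, and its groups overlapped. Among the transcription factors, Irf7 had 24.9, 22.0 and 21.8 CPM in KO against 17.96, 21.2 and 19.8 CPM in KO cohort WT. All 3 KO libraries were above the wild type ones (log2 difference 0.22 ± 0.17 SE, adjusted p = 0.69, edgeR). Stat2 and Irf9, components of ISGF3, had KO differences of -0.02 ± 0.13 and -0.07 ± 0.13 with overlapping groups.

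In RH HET cells, 0 of 39 members were called by edgeR, against 0.0181% of all tested genes, and DESeq2 called 0, against 0.314%. An unadjusted p under 0.05 was reached by 4 members, 3 of them with a positive difference, against 7.18% of all tested genes and 3.48% with a positive difference. Differences were above 0 for 24 members, against 48.8% of all tested genes, and the median was 0.07 for the members and -0.01 for all. Tor3a, an interferon-induced ATPase of the torsin family, was the only member with every RH HET library above every RH cohort WT library (2.97% of all tested genes, with 3.52% separated the other way). It had 82.6, 92.3, 86.8 and 82.3 CPM in RH HET against 75.0, 59.7 and 80.0 CPM in RH cohort WT (log2 difference 0.27 ± 0.10 SE, adjusted p = 0.60, edgeR). Parp14, which attaches single ADP-ribose units to proteins, had 100.2, 109, 123 and 129 CPM in RH HET against 82.8, 79.3 and 110.0 CPM in RH cohort WT, with overlap through RH cohort WT 3 (log2 difference 0.34 ± 0.12 SE, adjusted p = 0.52, edgeR). Oasl1, an OAS-like protein, had 1.11, 2.54, 2.29 and 3.38 CPM in RH HET against 4.19, 3.86 and 3.15 CPM in RH cohort WT, and only RH HET 4 reached into the wild type range (log2 difference -0.68 ± 0.28 SE, adjusted p = 0.66, edgeR). Without RH HET 4 the median was 0.01, and without RH HET 1 it was 0.15.

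In RH HOMO cells, 1 of 39 members was called by edgeR, Cmpk2, against 1.57% of all tested genes and 0.578% in the same direction. DESeq2 called 5 members, all higher: Cmpk2, Zbp1, Oas1a, Oasl2 and Tor3a, against 4.16% of all tested genes and 1.62% higher. Differences were above 0 for 28 of 39 members, against 52.7% of all tested genes, and the median log2 difference was 0.21 for the members and 0.02 for all. An unadjusted p under 0.05 was reached by 11 members, 10 of them with a positive difference, against 12.9% of all tested genes and 6.38% with a positive difference. All RH HOMO libraries were above all RH cohort WT libraries for 8 members (Zbp1, Oas1a, Ifit3, Irf9, Cmpk2, Isg20, Tor3a and Epsti1), against 7.39% of all tested genes, and below for 1 (Oasl1), against 8.03%. The plot of differences shows all 39.

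**Figure D2:**
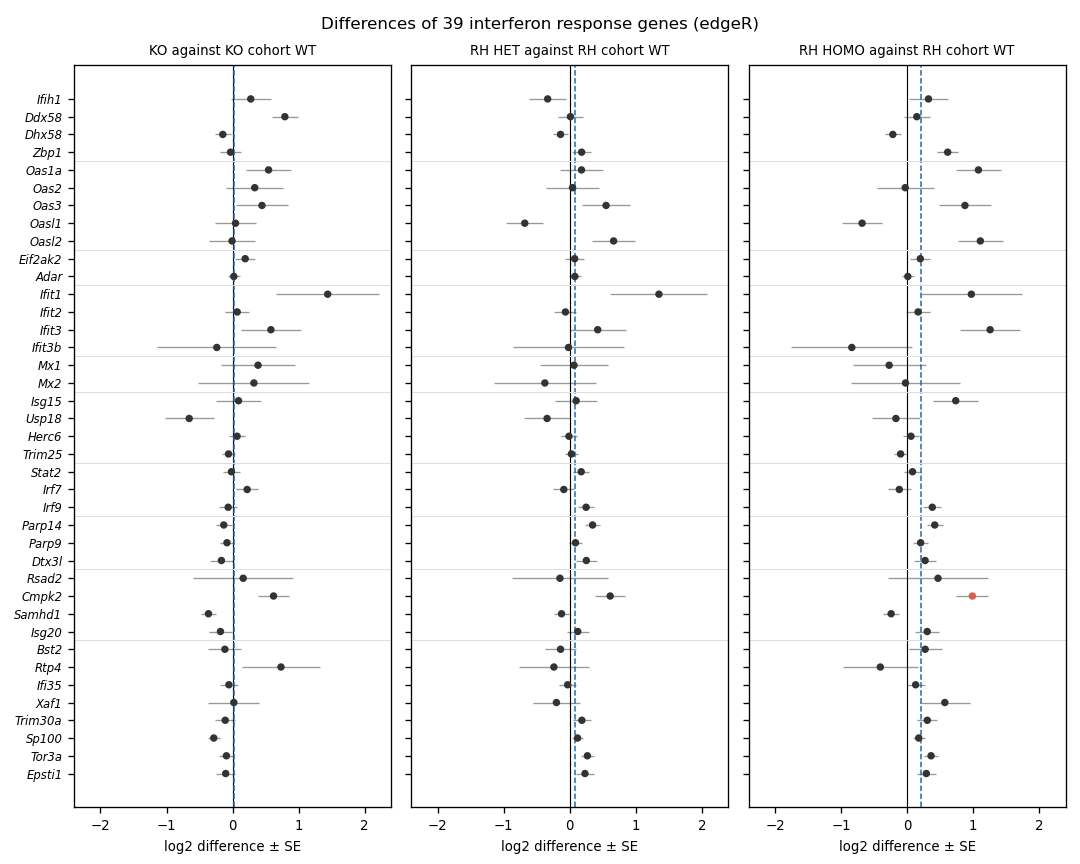
Log2 differences of the 39 tested members in KO, RH HET and RH HOMO cells against the wild type of their cohort, as points with bars of 1 SE from edgeR, grouped by role; the dashed line is the members' median and the coloured point is called. The median is 0.02 in KO, 0.07 in RH HET and 0.21 in RH HOMO, and Cmpk2 in RH HOMO is the called point.

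Cmpk2 rose in RH HOMO cells, with 6.73, 12.05 and 9.47 CPM in RH HOMO against 4.82, 4.39 and 5.03 CPM in RH cohort WT. Every RH HOMO library was above every wild type library, and RH HOMO 2 was the highest. The log2 difference was 0.99 ± 0.24 SE (adjusted p = 0.049, edgeR) and stayed between 0.77 and 1.17 under 14 alternatives. The call stood in 6 of the 14, with adjusted p from 0.0047 (DESeq2) to 0.25 (without RH cohort WT 1 and RH HOMO 2). It was lost when RH cohort WT 1, 2 or 3 or RH HOMO 2 or 3 was left out (adjusted p 0.083 to 0.17) and kept without RH HOMO 1 (adjusted p = 0.030). In RH HET, Cmpk2 had 4.67, 8.68, 9.63 and 5.99 CPM against the same 4.82, 4.39 and 5.03 CPM in RH cohort WT, and the groups overlapped through RH HET 1 (log2 difference 0.61 ± 0.23 SE, adjusted p = 0.60, edgeR). In KO it had 8.85, 6.82 and 8.14 CPM against 5.55, 5.18 and 4.77 CPM in KO cohort WT, without overlap (log2 difference 0.62 ± 0.24 SE, adjusted p = 0.27, edgeR). Its neighbour Rsad2 had 0.0707, 0.664 and 0.458 CPM in RH HOMO against 0.472, 0.200 and 0.200 CPM in RH cohort WT, and the groups overlapped.

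The OAS family makes the second messenger 2′,5′-oligoadenylate from ATP when double-stranded RNA activates it, although Oasl1 lacks this activity. Oas1a had 6.52, 6.74 and 4.37 CPM in RH HOMO against 3.35, 2.19 and 2.83 CPM in RH cohort WT, without overlap (log2 difference 1.08 ± 0.34 SE, adjusted p = 0.13, edgeR). Of the 50-base words of Oas1a transcripts, 57.6% also occurred in Oas1g, so its counts are uncertain. Oasl2 had 2.33, 5.63 and 4.29 CPM in RH HOMO against 1.99, 1.31 and 2.39 CPM in RH cohort WT. The groups overlapped through RH HOMO 1 (log2 difference 1.11 ± 0.35 SE, adjusted p = 0.13, edgeR). Its neighbour Oasl1, which in mice represses translation of Irf7, lay on the other side, with 1.73, 2.91 and 2.33 CPM in RH HOMO against 4.19, 3.86 and 3.15 CPM in RH cohort WT. All RH HOMO libraries were below all wild type ones (log2 difference -0.68 ± 0.30 SE, adjusted p = 0.35, edgeR).

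Ifit3 had 1.66, 3.95 and 1.77 CPM in RH HOMO against 0.734, 0.983 and 1.36 CPM in RH cohort WT. The groups did not overlap, and RH HOMO 2 was more than 2 CPM above the other libraries of its group (log2 difference 1.26 ± 0.45 SE, adjusted p = 0.20, edgeR). Without RH HOMO 2 the difference was 0.73. Ifit3 shared 51.2% of its 50-base words with Ifit3b, so reads could be split between them, and Ifit3b had a difference of -0.84 ± 0.91 at 0 to 0.250 CPM in RH HOMO against 0.160 to 0.314 CPM in RH cohort WT. Zbp1, a sensor of Z-form nucleic acid, had 28.1, 33.99 and 31.6 CPM in RH HOMO against 20.2, 20.8 and 20.1 CPM in RH cohort WT, without overlap (log2 difference 0.61 ± 0.16 SE, adjusted p = 0.063, edgeR). Zbp1, Oas1a and Tor3a are described because of their DESeq2 calls, after their values were seen.

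Of the ISGF3 and IRF members, Irf9 had 54.6, 67.8 and 53.3 CPM in RH HOMO against 45.9, 39.4 and 49.6 CPM in RH cohort WT. The groups did not overlap, with a log2 difference of 0.38 ± 0.13 SE (adjusted p = 0.19, edgeR). Irf9 overlaps Rnf31 on the same strand in the annotation, so part of its count can belong to Rnf31. Irf7 overlaps Phrf1 on the opposite strand, and with a kit that keeps no strand part of its count can belong to Phrf1. Irf7 had 27.3, 30.2 and 23.1 CPM in RH HOMO against 36.3, 23.05 and 28.2 CPM in RH cohort WT, and Stat2 had 120.1, 125 and 123 CPM in RH HOMO against 97.4, 120.1 and 130 CPM in RH cohort WT. Both overlapped between groups, with differences of -0.12 ± 0.17 and 0.08 ± 0.13. Adar, among the 3 most abundant members by CPM, had 130.1, 112 and 139 CPM in RH HOMO against 112, 131 and 136 CPM in RH cohort WT (log2 difference 0.01 ± 0.09 SE, adjusted p = 0.98, edgeR). Samhd1 had 600.2, 529 and 648 CPM in RH HOMO against 645, 708 and 749 CPM in RH cohort WT, with a difference of -0.24 ± 0.12 SE (adjusted p = 0.41, edgeR).

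The other members were not called in RH HOMO. Isg15 had 2.26, 4.55 and 3.16 CPM in RH HOMO against 2.94, 1.57 and 1.52 CPM in RH cohort WT, with overlap through RH cohort WT 1 (log2 difference 0.74 ± 0.34 SE, adjusted p = 0.36, edgeR). Of its conjugation partners, Herc6, the mouse ligase for Isg15, had a difference of 0.06 ± 0.13, and Trim25, a ligase that also acts on RIG-I, had -0.10 ± 0.10. Eif2ak2 (PKR), the kinase that halts translation on double-stranded RNA, had 0.20 ± 0.15. Xaf1, an antagonist of the apoptosis inhibitor XIAP, had 3.57, 8.08 and 6.62 CPM in RH HOMO against 6.16, 2.55 and 3.65 CPM in RH cohort WT, and the groups overlapped (log2 difference 0.57 ± 0.38 SE, adjusted p = 0.59, edgeR). Isg20, a 3′ exonuclease, had 17.8, 25.2 and 16.3 CPM in RH HOMO against 15.8, 16.3 and 15.95 CPM in RH cohort WT, without overlap but with RH HOMO 3 close to the wild type libraries (log2 difference 0.30 ± 0.18 SE, adjusted p = 0.52, edgeR). Oas3 had a difference of 0.88 ± 0.39 and Oas2 one of -0.03 ± 0.43, Ifit2, a relative of Ifit3, had 0.17 ± 0.18, and Trim30a, a tripartite motif protein of mice, had 0.31 ± 0.15. The largest standard errors belonged to members under 1 CPM, with 0.77 for Ifit1, 0.76 for Rsad2, 0.82 for Mx2 and 0.91 for Ifit3b.

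**Figure D3:**
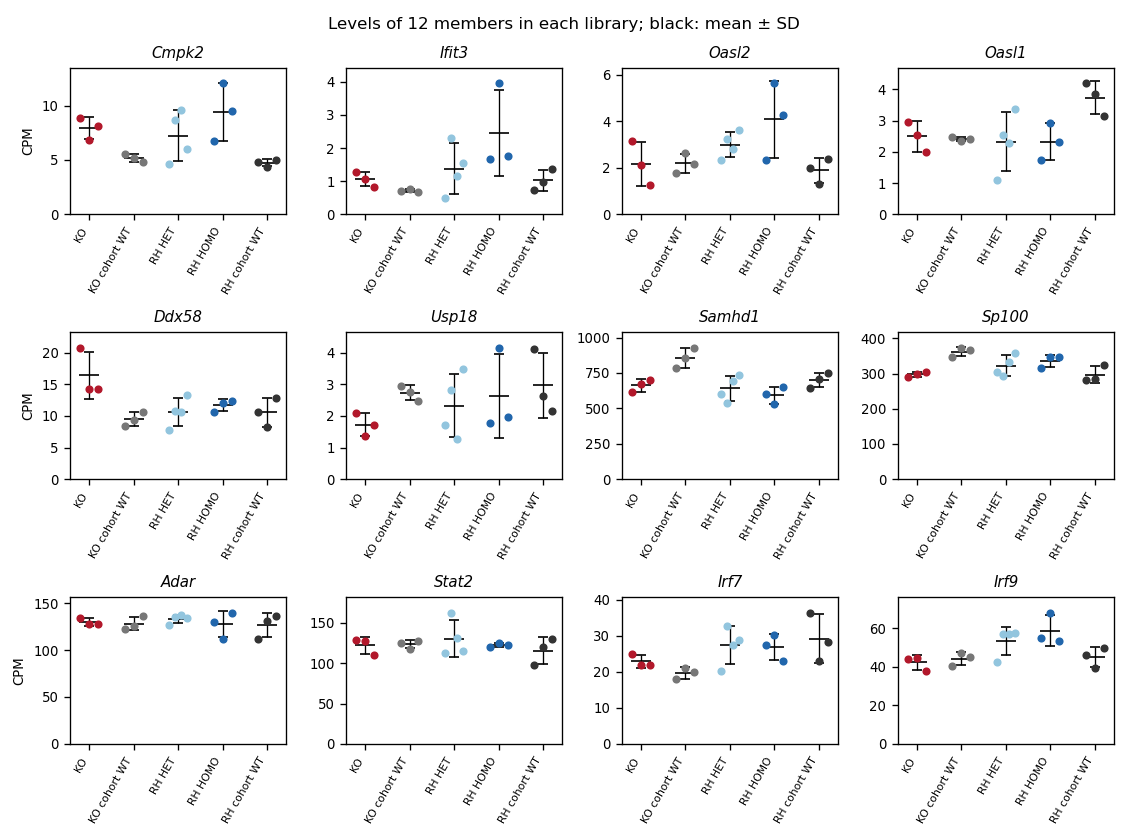
CPM of 12 members in each library (points) with the mean and SD of each group in black, on linear axes from 0. Cmpk2 lies at 6.73 to 12.05 CPM in RH HOMO and at 4.39 to 5.03 CPM in RH cohort WT, and Ddx58 at 14.2 to 20.7 CPM in KO and at 8.43 to 10.6 CPM in KO cohort WT.

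By role, the differences in RH HOMO divided as follows. Of the 3 Parp members (Parp14, and Parp9 with its E3 ligase partner Dtx3l), all 3 had positive differences, from 0.21 to 0.42, and both Mx GTPases had negative ones, -0.27 and -0.02. Of the 8 tested members in the group of other induced genes, 7 had positive differences, with a median of 0.28. Parp9 and Dtx3l overlap on opposite strands, so their counts are not independent. Parp14 was called in RH HOMO only without RH cohort WT 3 (log2 difference 0.58, adjusted p = 0.023, edgeR). Of the 13 members with an ISRE core match, 12 had a positive RH HOMO difference, with a median of 0.32. It was positive for 12 of 16 tested members with a promoter but no match (median 0.17) and 4 of 10 without a promoter entry (median -0.03). Of all tested genes 52.7% were above 0. In KO the counts were 9 of 13, 7 of 16 and 4 of 10 (medians 0.19, -0.03 and -0.06), against 49.7% of all. In RH HET they were 9 of 13, 9 of 16 and 6 of 10 (medians 0.10, 0.05 and 0.05), against 48.8% of all. Whether these groups of members differ was not tested.

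The libraries of a group differed in the members. RH HOMO 2 was the highest of all 16 libraries for 15 of 39 members and the highest of its group for 25, among them Cmpk2, Ifit3, Oas1a, Oasl2, Isg15 and Bst2, the tetherin that holds budding virus on the cell. It was the lowest of its group for 10, among them Samhd1, Adar, Parp14, Parp9 and Dtx3l. RH HET 1 was the lowest of its group for 25 members and was above the mean of all libraries for 4 of 39, against 33 of 39 in RH HET 4. KO 1 was the highest of its group for 25 members. The same counts are not given for all tested genes, and RH HOMO 2 also stood apart on the first principal component (77.14). Whether these counts are particular to the members was therefore not tested. The map of all libraries shows these columns.

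**Figure D4:**
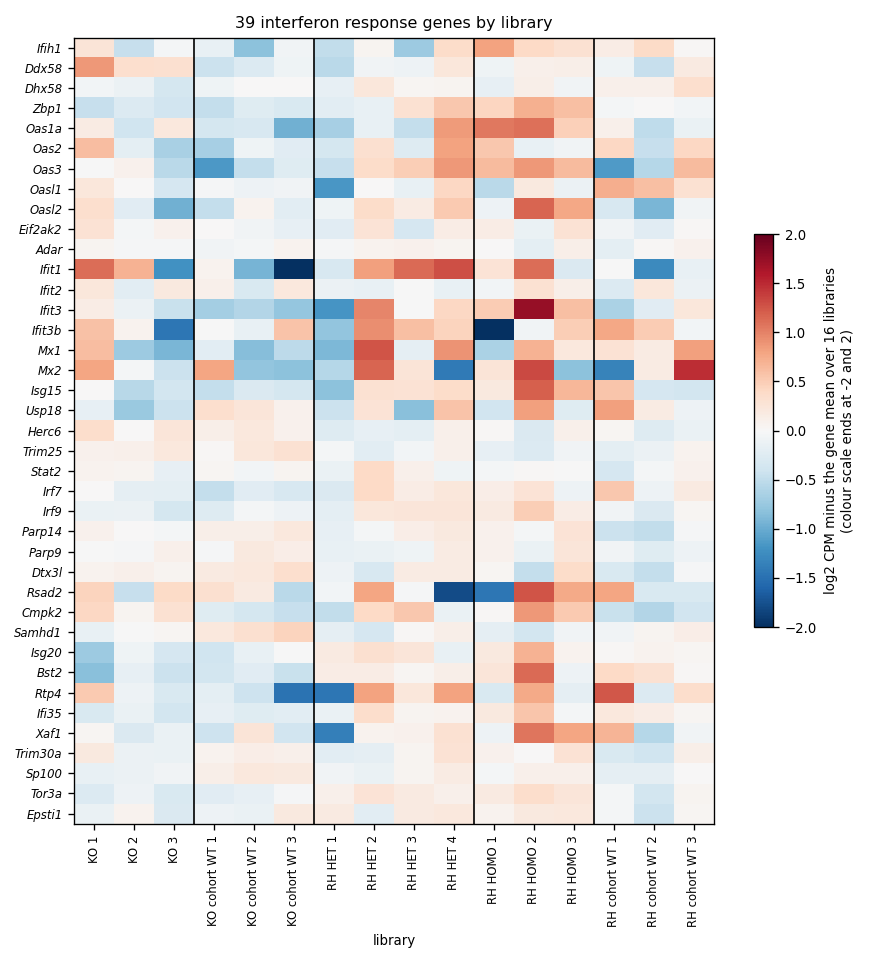
Log2 CPM of the 39 tested members in each library minus the mean of the gene over the 16 libraries; columns are libraries by group and rows are members by role. The columns of RH HOMO 2, highest of all for 15 members, and of RH HET 1, above the mean for 4 members, stand out.

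Without RH cohort WT 1 and RH HOMO 2, 0 members were called in RH HOMO, and 25 of 39 differences were above 0 with a median of 0.25, against 51% and 0.0059 for all genes of that fit. With a term for the mitochondrial share, 32 of 39 were above 0, with a median of 0.24, against 51.8% and 0.02 for all genes. The summed level of 16 macrophage and monocyte markers was 39.1, 39.2 and 23.6 CPM in RH HOMO, 34.7, 33.2, 22.9 and 32.5 CPM in RH HET, and 25.7, 31.6 and 31.9 CPM in RH cohort WT. In the knockout cohort it was 22.3, 22.0 and 20.7 CPM in KO against 21.7, 22.3 and 27.6 CPM in KO cohort WT. Of the 16, 13 were tested. By edgeR 0 of them were called in RH HOMO, and 1 had an unadjusted p under 0.05, against 12.9% of all tested genes. Their RH HOMO differences were above 0 for 8, with a median of 0.67. Cd14, Fcgr1 and Ccr2 failed the filter with 52, 35 and 24 counts over all libraries. The part of these cells in the member levels was not tested. The summed level of 9 markers of plasmacytoid dendritic cells, the main producers of type I interferon, was 325.55 to 361 CPM in RH HOMO against 293 to 369 CPM in RH cohort WT, and 336 to 367 CPM in KO against 349 to 374 CPM in KO cohort WT. The sum came from Tcf4, Pacsin1, Ly6d, Irf7 and Bst2, of which Irf7 and Bst2 are members and Tcf4 is also expressed in B cells. The other 4 failed the filter, with 7 counts of Siglech, 11 of Klk1, 45 of Cox6a2 and 82 of Ccr9 over all 16 libraries.

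RH HOMO against RH HET gave 0 called members by edgeR (0% of all tested genes) and 0 by DESeq2 (0.817%), with 4 at an unadjusted p under 0.05, all higher in RH HOMO (11.4% of all tested genes in either direction and 5.6% higher). Differences were above 0 for 28 of 39, against 52.6% of all, and no member separated the groups, against 3.78% of all tested genes above and 4.28% below. Oas1a, at 6.52, 6.74 and 4.37 CPM in RH HOMO and 1.95, 2.80, 2.22 and 5.65 CPM in RH HET, had a difference of 0.90 ± 0.31 SE (adjusted p = 0.35, edgeR). The median was 0.12, and 0.04 without RH HOMO 2.

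The RH HOMO effect was set against the KO effect in the same fit, with separate wild type groups. By edgeR 0 of 39 members were called, against 0.241% of all tested genes. An unadjusted p under 0.05 was reached by 7 members (9.53% of all tested genes), 6 with the larger value in RH HOMO (4.42%). DESeq2 called 1 (1.78% of all tested genes), Sp100, whose difference of effects was 0.46 ± 0.13 SE with an adjusted p of 0.17 by edgeR and 0.039 by DESeq2. The effect of Sp100 was 0.18 in RH HOMO and -0.28 in KO. For Ddx58 the difference of effects was -0.64 ± 0.28 SE (adjusted p = 0.47, edgeR) and for Cmpk2 0.37 ± 0.34 SE (adjusted p = 0.79, edgeR).

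The wild type cells of the cohorts were also compared, and the share of members called was not above that of all tested genes. Parp14 was lower in RH cohort WT, with 82.8, 79.3 and 110.0 CPM in RH cohort WT against 122, 122 and 130.3 CPM in KO cohort WT (log2 difference -0.46 ± 0.12 SE, adjusted p = 0.042, edgeR). It was the 1 member called, against 5.06% of all tested genes and 1.88% lower, while DESeq2 called 4 members, Parp14, Dtx3l and Sp100 lower and Irf7 higher, against 15.3% of all tested genes. Irf7 had 36.3, 23.05 and 28.2 CPM in RH cohort WT against 17.96, 21.2 and 19.8 CPM in KO cohort WT, without overlap (log2 difference 0.57 ± 0.17 SE, adjusted p = 0.057, edgeR). RH cohort WT 1 carries the batch tag of the knockout cohort, and with 1 such library cohort and batch could not be separated here. Each genotype was compared only within its cohort.

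Other genes of the pathway were read from lists. Of 6 interferon receptor genes, 2 fell in KO, against 0.729% of all tested genes lower, and 1 fell in RH HOMO, against 0.994%. Ifngr1, a chain of the interferon gamma receptor, had 45.8, 54.05 and 50.2 CPM in KO against 65.6, 72.4 and 70.6 CPM in KO cohort WT (log2 difference -0.48 ± 0.10 SE, adjusted p = 0.022, edgeR), and the call was lost in 5 of 14 alternatives, which left out KO 1, KO 3 or any single KO cohort WT library (adjusted p 0.063 to 0.14). Ifnlr1, the interferon lambda receptor chain, fell in KO, with 2.55, 5.32 and 3.11 CPM in KO against 8.68, 12.65 and 9.72 CPM in KO cohort WT (log2 difference -1.505 ± 0.25 SE, adjusted p = 0.0072, edgeR). It also fell in RH HOMO, with 2.09, 2.51 and 1.73 CPM in RH HOMO against 6.39, 6.43 and 9.50 CPM in RH cohort WT (log2 difference -1.815 ± 0.26 SE, adjusted p = 0.0016, edgeR). Neither pair of groups overlapped. Its call was lost in KO without KO 1 or KO cohort WT 2 (adjusted p 0.051 and 0.050), and in RH HOMO in a fit of only the libraries compared (adjusted p = 0.071). None of the 5 JAK-STAT genes was called in KO, RH HET or RH HOMO by edgeR, and 1, 0 and 1 of the 5 had an unadjusted p under 0.05, against 12.1%, 7.18% and 12.9% of all tested genes.

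Irf1, a factor induced by interferon gamma that binds related elements, rose in RH HOMO, with 76.0, 109 and 84.6 CPM in RH HOMO against 38.05, 42.6 and 45.7 CPM in RH cohort WT (log2 difference 1.10 ± 0.21 SE, adjusted p = 0.013, edgeR). The call was lost in 6 of 14 alternatives, among them those without RH cohort WT 1 (adjusted p = 0.064) and without RH cohort WT 2 (adjusted p = 0.058).

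Of 69 other interferon-induced genes, 63 were tested. In RH HOMO 6 rose (Nmi, Gbp3, Ifi47, Igtp, Irgm1 and Tgtp2) and 0 fell, against 0.578% of all tested genes higher, and 48 of 63 differences were above 0 with a median of 0.25. Ifi47, Igtp, Irgm1 and Tgtp2 are interferon-inducible GTPases with a part in defence against intracellular parasites. Irgm1 had 13.3, 17.3 and 16.6 CPM in RH HOMO against 8.07, 6.81 and 8.02 CPM in RH cohort WT (log2 difference 1.05 ± 0.22 SE, adjusted p = 0.021, edgeR). Without RH cohort WT 1 and RH HOMO 2 only Ifi47 stayed called, and each of the 6 calls was lost without at least 1 of the single libraries, RH cohort WT 2 among them for all 6. All 6 calls were also lost with a term for the mitochondrial share (adjusted p 0.058 to 0.15) and in a fit of only the libraries compared (adjusted p 0.075 to 0.37). DESeq2 called 13 of the 63 in either direction, against 4.16% of all tested genes with a DESeq2 adjusted p. In KO 3 of the 63 fell, against 0.729% of all tested genes lower, and 0 rose. Sp140, a chromatin reader of the Sp100 family, had 243, 240.0 and 263 CPM in KO against 348, 359 and 373 CPM in KO cohort WT (log2 difference -0.535 ± 0.075 SE, adjusted p = 0.0016, edgeR), and was called in all 14 alternatives. Ifi27l2a, a small interferon-induced membrane protein, had 7.78, 8.15 and 9.26 CPM in KO against 16.7, 17.4 and 21.2 CPM in KO cohort WT (log2 difference -1.13 ± 0.22 SE, adjusted p = 0.016, edgeR), and Phf11b had a difference of -0.44 (adjusted p = 0.046, edgeR). Their calls were lost in 4 and 6 of 14 alternatives, each leaving out 1 library. Ifi27l2a lost it when KO 1 or KO 2 was left out and when KO cohort WT 2 or 3 was, and Phf11b when any single library of either group was. Marker sums of several cell types, that of germinal centre B cells among them, were also lower in KO, as given above. The part of these cells in these falls, and in that of Ifngr1, was not tested. In RH HET 0 of the 63 were called by edgeR, and 6 had an unadjusted p under 0.05, near the 7.18% of all tested genes.

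On the chromosomes, 6 of the 40 members lie on chromosome 16 (Mx1, Mx2, Parp14, Parp9, Dtx3l and Rtp4), 5 on chromosome 5 (the OAS family) and 4 on chromosome 19 (the IFIT family). Of the chromosome 16 members in KO, the differences were negative for Parp14, Parp9 and Dtx3l (-0.13, -0.08 and -0.17) and positive for Mx1, Mx2 and Rtp4, the last a receptor transport protein (0.39, 0.32 and 0.73), and none was called.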

How the data were processed

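The authors deposited raw read counts per gene symbol for 16 libraries of sorted germinal centre B cells. Per the submitters' processing notes, the tools were CASAVA 1.8, HISAT2 and featureCounts on mm10, and the labels' protocols name the TruSeq RNA v2 kit, which does not mark strand. The members and gene lists were chosen with earlier results of these data known. The tests used edgeR 4.0.16 in R 4.3.3: filterByExpr, TMM scaling, 5 group means fitted to all libraries (11 residual degrees of freedom) and the quasi-likelihood test. The SE was derived from the log2 difference and its F statistic (difference over root F). Positions and exon lengths came from GENCODE M21 (GRCm38). Groups were read from the sample titles, since several other tags were shifted against their values. Replicate numbers follow accession order and pair nothing. No replicate pair agreed within sampling noise. Full values are given for members taken by a rule: those called by edgeR, the 2 with the largest difference in each direction at a mean of at least 1 CPM, the 3 most abundant, and Stat2, Irf7 and Irf9. Not every comparison is written out for them. Some values, such as those of Oasl2 and Usp18 in RH HET, are shown only in the plot of CPM by library. The values of Isg15, Xaf1, Isg20, Rsad2, Parp14, Zbp1, Oas1a, Tor3a and Ifnar1 were added after they were seen. Alternatives were DESeq2 size factors, DESeq2 1.42.0, no count filter, only the libraries compared, RH cohort WT 1 moved to the knockout cohort, terms for sex and the mitochondrial share, RH cohort WT 1 and RH HOMO 2 left out, and each library left out. The test was checked on simulated counts. Some results on genes of the pathway lists are not reported here.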

Additional observations from a re-analysis of the deposited data

Results flagged for a closer look

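In RH HET, the group with 4 libraries, the lowest or highest library stood far from the others for 3 of the 39 tested members. Chance would flag about 1 in 20 independent genes. The members are not independent, and RH HET 1 was the lowest of its group for 25 of them. The 3 are therefore not taken as more than chance. Isg15 had 1.11 CPM in RH HET 1 and 2.43 to 2.56 CPM in the other RH HET libraries, a gap of 0.9077 of the range. Irf9 had 42.3 CPM in RH HET 1 and 56.8 to 57.2 CPM in the others, a gap of 0.9721 of the range. Epsti1, an interferon-responsive gene first found in epithelial cells beside stroma, had 31.9 CPM in RH HET 2 and 42.0 to 42.95 CPM in the others, a gap of 0.9127 of the range.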

How the results depend on the processing

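No member passed in RH HET or in RH HOMO against RH HET under any alternative run. In KO, where 0 passed, the count was 1 (Ddx58) without a count filter, with DESeq2, with a term for sex, and with RH cohort WT 1 and RH HOMO 2 left out, and 4 in a fit of only the libraries compared. In RH HOMO, where 1 passed, it was 2 without a count filter (Cmpk2 and Zbp1), 5 with DESeq2, and 0 in a fit of only the libraries compared, with RH cohort WT 1 in KO cohort WT, and with RH cohort WT 1 and RH HOMO 2 left out. Leaving out single libraries gave 0 to 1. The count of other interferon-induced genes was recomputed under the same alternatives after seeing the data. In RH HOMO, where 6 were called, it was 14 without a count filter, 13 with DESeq2, 0 in a fit of only the libraries compared and with a term for the mitochondrial share, 1 with RH cohort WT 1 in KO cohort WT, 1 with RH cohort WT 1 and RH HOMO 2 left out, and 0 to 4 without single libraries. In KO, where 3 were called, it was 5 without a count filter, with DESeq2 and in a fit of only the libraries compared, and 1 to 2 without single libraries. The members' median kept its sign in RH HET (0.01 to 0.15), RH HOMO (0.15 to 0.25) and RH HOMO against RH HET (0.04 to 0.16), and in KO it ran from -0.05 (without KO 1) to 0.05. The cause of these changes was not tested. DESeq2 called 3.47% of all tested genes in KO and 4.16% in RH HOMO, against 1.3% and 1.57% by edgeR. Shares of all genes for the other alternatives are not given here, so their counts cannot be read as changes particular to these genes. No paired analysis was possible because the labels carry no replicate numbers. With 3 or 4 libraries a group, and members such as Rsad2, Ifit1 and Mx2 under 1 CPM, differences with an SE of 0.7 or more could not be resolved.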
